A study of Mus musculus with 8 samples.

Results

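The 10 genes described here encode molecular chaperones and regulators of the stress responses that control them. They are 4 cytosolic chaperone genes (Hsph1, Hspa8, Dnajb1 and Hsp90aa1), 2 mitochondrial chaperonin genes (Hspd1 and Hspe1) and 4 genes of the endoplasmic reticulum (ER) and its stress response (Hspa5, Hsp90b1, Ddit3 and Xbp1). They were picked by name with earlier results of these data known, so their counts beside shares of all probes are descriptions and not tests. Their probes were found through the transcript accession of each probe. They made up 10 of the 16309 genes named on the array, were read by 14 probes, and were well above background on all 8 arrays, so that all 10 entered the tests. Where a gene had 2 probes, the one brighter on average over the arrays was used, and the other is named as the second probe.

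Cytosolic chaperones hold and refold unfolded proteins, and many of their genes are switched on by heat shock factor when such proteins accumulate. The ER has chaperones of its own for proteins that are secreted or sent to the membrane. When the ER is overloaded, the unfolded protein response, run by the sensors Ire1, Perk and Atf6, raises the ER chaperones and, under lasting stress, the transcription factor Ddit3. Secretory cells of the gut lining, such as mucus-producing goblet cells and antibody-producing plasma cells, carry a large ER and depend on this machinery.

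The study measured gene expression in mucosa of the rectum (the last 7 mm before the anus) and of the middle colon (2.5 to 3.5 cm from the ileocecal junction) of male mice, with isolation stress and the loss of the cytokine gene Il18 as its factors. The 8 groups were rectum of IL18ko stress, IL18ko control, WT stress and WT control mice, and colon of the same 4 kinds of mice. IL18ko mice lack Il18, and WT mice are wild type. Stress mice were taken out of a cage of brothers at 10 to 12 weeks of age and housed alone. The isolation is given as 8 days in one label and as 16 days in another. Control mice stayed with their brothers and were killed before isolation began, so stress mice were older by its length. The mouse strain and the construction of the knockout are not given in the sources used here. Each group was 1 array of RNA pooled from 5 mice, with no replicate.

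All rectum arrays lay on one slide and all colon arrays on another, so slide and tissue cannot be told apart. On each array 62.2% to 66.4% of spots were well above background and none was saturated. The Il18 probe was above background on 0 of 4 IL18ko arrays and 4 of 4 WT arrays, though its place relative to the deletion is not known here. The WT stress rectum array stood apart. Its 75th percentile of log2 signal was 9.24, against 9.45 to 9.75 on the other arrays. Its level differed by 1.5-fold or more from WT control rectum for 27.9% of probes, where the same comparison gave 7.35% in IL18ko rectum, 12.2% in IL18ko colon and 8.9% in WT colon.

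Promoter sequence was read for 8 of the 10 genes, in 11 windows from 250 bases before to 50 bases after a RefSeq start site (build GRCm38.p6). Each motif was searched on both strands. The heat shock element of 3 units (GAA, TTC and GAA, or TTC, GAA and TTC, with 2 bases of any kind between units) is the textbook binding site of heat shock factor, and 0.603% of 32817 mouse promoter windows held it. The ER stress response element (CCAAT, then 9 bases of any kind, then CCACG) is the textbook site of Atf6 and the CCAAT-binding factor, and 0.119% of the windows held it. It contains a CCAAT box, which 37.4% of windows held. The C/EBP-ATF element (ATTG followed by CATCA), present in 0.192% of windows, was in none of the 11. The windows of 3 members (Hsph1, Hspd1 and Hspe1) held the heat shock element and those of 2 (Hspa5 and Hsp90b1) held the ER stress response element. Those of Dnajb1, Ddit3 and Xbp1 held neither, which says only that these letters are not in these windows. Promoters of 4 members that differed between rectum and colon are shown, from 250 bases before to 30 bases after the start site, with the heat shock element (Hsph1, Hspe1) or the ER stress response element (Hspa5, Hsp90b1) in capitals. A match is a description and not evidence of binding. The Hsph1 window is chr5:149636286-149636565 on the minus strand, that of Hspe1 chr1:55087898-55088177 on the plus strand, that of Hspa5 chr2:34771840-34772119 on the plus strand and that of Hsp90b1 chr10:86705415-86705694 on the minus strand.
Hsph1: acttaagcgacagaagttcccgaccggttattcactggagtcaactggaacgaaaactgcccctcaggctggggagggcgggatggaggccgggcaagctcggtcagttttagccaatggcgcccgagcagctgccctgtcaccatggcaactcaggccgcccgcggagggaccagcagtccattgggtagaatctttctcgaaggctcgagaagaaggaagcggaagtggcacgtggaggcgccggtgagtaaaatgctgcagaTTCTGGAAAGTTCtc
Hspe1: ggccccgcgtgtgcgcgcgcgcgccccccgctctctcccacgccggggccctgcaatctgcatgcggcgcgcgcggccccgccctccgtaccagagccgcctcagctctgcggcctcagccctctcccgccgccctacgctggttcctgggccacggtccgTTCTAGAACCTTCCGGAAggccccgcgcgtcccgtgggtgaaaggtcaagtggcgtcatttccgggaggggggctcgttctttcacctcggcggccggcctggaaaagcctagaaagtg
Hspa5: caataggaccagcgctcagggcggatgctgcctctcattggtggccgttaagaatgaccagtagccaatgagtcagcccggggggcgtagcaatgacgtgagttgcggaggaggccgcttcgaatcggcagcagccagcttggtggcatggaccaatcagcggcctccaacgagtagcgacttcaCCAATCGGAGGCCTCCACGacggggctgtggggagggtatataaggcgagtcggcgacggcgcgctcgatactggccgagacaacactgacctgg
Hsp90b1: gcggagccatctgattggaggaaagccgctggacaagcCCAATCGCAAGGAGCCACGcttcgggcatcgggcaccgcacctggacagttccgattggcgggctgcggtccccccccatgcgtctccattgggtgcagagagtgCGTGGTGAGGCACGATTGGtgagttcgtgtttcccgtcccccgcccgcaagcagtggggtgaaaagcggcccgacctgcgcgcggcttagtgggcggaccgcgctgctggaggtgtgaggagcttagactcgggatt

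The element of Hsph1 began 16 bases after the start site and so lay in the transcribed part. Hspe1 held 2 overlapping elements, beginning at positions -89 and -84. Hspd1 and Hspe1 are neighbours read in opposite directions from a shared promoter, and 285 bases of an Hspd1 window lay in that of Hspe1, so both genes share these elements. The element of Hspa5 began at position -65 and those of Hsp90b1 at -212 and -107, the last of them on the opposite strand.

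The tissues were compared first. Of the 10 genes, 6 were lower in rectum than in colon and none was higher: Hsph1 about 3-fold, and Hspd1, Hspe1, Hspa5, Hsp90b1 and Xbp1 by 1.35-fold to 1.76-fold. Hspa8, Dnajb1, Hsp90aa1 and Ddit3 did not pass the test, and 0 genes were higher also at an unadjusted p under 0.05 and in the fit without pairs. Levels are log2 signals relative to the 75th percentile of each array, and are compared between arrays for 1 probe at a time. The test was limma on the 4 rectum minus colon differences, 1 for each kind of mouse, with p-values adjusted (Benjamini-Hochberg) over 26265 probes and 0.05 as the threshold. Errors after ± are standard errors (SE) from this fit. In the same test 27.5% of all probes were called, 14% higher and 13.5% lower in rectum. The median difference was -0.59 over the 10 genes and 0.06 over all probes. In bulk mucosa, fewer cells of a type and less RNA per cell cannot be told apart.

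**Figure D1:**
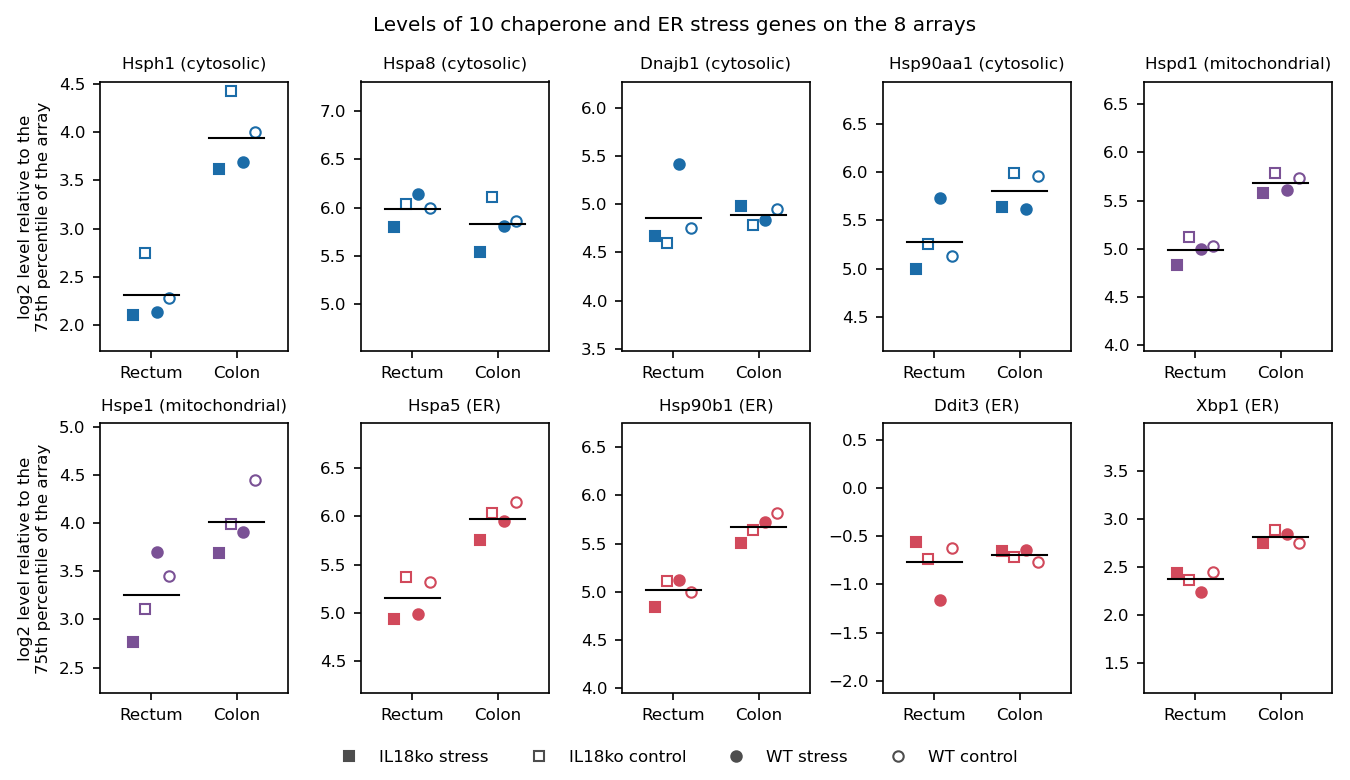
Log2 level of the 10 genes relative to the 75th percentile of each array, rectum left of colon. Each point is 1 array (a pool of 5 mice), squares are IL18ko and circles WT, filled symbols stress and open symbols control, and the line is the mean of 4 arrays. All 4 rectum arrays lie below all 4 colon arrays for Hsph1, Hspd1, Hspa5, Hsp90b1 and Xbp1. Each panel spans 2.8 log2 units.

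Hsph1 encodes Hsp110, a large relative of Hsp70 that helps it release its nucleotide and keeps aggregates soluble. Its levels in rectum were 2.10 in IL18ko stress, 2.74 in IL18ko control, 2.14 in WT stress and 2.28 in WT control mice, against 3.62, 4.43, 3.70 and 4.0 in colon of the same groups. Every rectum array lay below every colon array. The difference was -1.62 ± 0.09 (SE, n = 4 pairs), or 3.08-fold lower in rectum, with a limma adjusted p of 8.55e-05. The 4 pairs ran from -1.72 to -1.52, a span smaller than the spread of either tissue's arrays.

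Hspa8 encodes Hsc70, the Hsp70 family member that most cells make without stress. Its levels were 5.79, 6.03, 6.14 and 5.99 in rectum of IL18ko stress, IL18ko control, WT stress and WT control mice, against 5.53, 6.11, 5.80 and 5.86 in colon. The tissues overlapped. The difference was 0.16 ± 0.10 (SE, n = 4 pairs, limma adjusted p = 0.264), higher in rectum in 3 of 4 pairs. A second Hspa8 probe gave 0.10 ± 0.19 (adjusted p = 0.734).

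Dnajb1 encodes an Hsp40 co-chaperone that delivers unfolded proteins to Hsp70 and is strongly heat inducible. Its levels were 4.67, 4.59, 5.41 and 4.75 in rectum of IL18ko stress, IL18ko control, WT stress and WT control mice, against 4.99, 4.78, 4.84 and 4.95 in colon. The WT stress rectum array was the highest of all 8, while the other rectum arrays lay below every colon array. The difference was -0.03 ± 0.16 (SE, n = 4 pairs, limma adjusted p = 0.901). Without the WT stress pair it was -0.24, lower in the remaining 3 of 3 pairs, with an adjusted p of 0.0293, where the adjusted p ran from 0.0293 to 0.964 over the 4 choices of a pair left out. The high value was not seen by the second Dnajb1 probe, which read 1.49, 1.28, 1.44 and 1.51 in rectum of the same groups and 1.23, 1.39, 1.58 and 1.62 in colon (-0.03 ± 0.11, adjusted p = 0.875).

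Hsp90aa1 encodes the inducible form of cytosolic Hsp90, which completes the folding of kinases and steroid receptors. Its levels were 5.00, 5.25, 5.73 and 5.14 in rectum of IL18ko stress, IL18ko control, WT stress and WT control mice, against 5.64, 5.99, 5.62 and 5.96 in colon. Again the WT stress rectum array was the only one of its tissue to reach the colon levels. The difference was -0.52 ± 0.17 (SE, n = 4 pairs), 1.44-fold lower in rectum, and did not pass the test (limma adjusted p = 0.0595). Without the WT stress pair it was -0.74 (adjusted p = 0.000151), and over the 4 choices of a pair left out the adjusted p ran from 0.000151 to 0.240. It also passed under quantile normalization (-0.60, adjusted p = 0.0131), where the 9 other settings ran from 0.0131 to 0.0925.

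The 2 mitochondrial genes form a pair: Hspd1 encodes Hsp60, the barrel in which imported proteins fold, and Hspe1 encodes Hsp10, its lid. Hspd1 levels were 4.83, 5.12, 4.99 and 5.03 in rectum of IL18ko stress, IL18ko control, WT stress and WT control mice, against 5.57, 5.79, 5.61 and 5.74 in colon. The tissues did not overlap, and the difference was -0.69 ± 0.08 (SE, n = 4 pairs), 1.61-fold lower in rectum (limma adjusted p = 0.00153). A second Hspd1 probe was also lower (-0.85 ± 0.19, adjusted p = 0.0170), with pairs from -1.53 to -0.37.

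Hspe1 levels were 2.76, 3.10, 3.70 and 3.45 in rectum of IL18ko stress, IL18ko control, WT stress and WT control mice, against 3.69, 3.99, 3.91 and 4.44 in colon. The WT stress rectum array just overlapped the lowest colon array, and within each kind of mouse the rectum was lower. The difference was -0.75 ± 0.15 (SE, n = 4 pairs), 1.69-fold lower (limma adjusted p = 0.0120). It missed the threshold without the IL18ko control pair (-0.71, adjusted p = 0.0695) and without the WT control pair (-0.67, adjusted p = 0.0772), and the adjusted p was as low as 6.25e-05 without the WT stress pair.

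In the ER, Hspa5 encodes BiP, the Hsp70 of this compartment and the repressor of its stress sensors. Its levels were 4.93, 5.37, 4.99 and 5.32 in rectum of IL18ko stress, IL18ko control, WT stress and WT control mice, against 5.76, 6.04, 5.95 and 6.15 in colon. Every rectum array lay below every colon array. The difference was -0.82 ± 0.09 (SE, n = 4 pairs), 1.76-fold lower in rectum, with a limma adjusted p of 0.00102.

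Hsp90b1 encodes Grp94, the Hsp90 of the ER, whose clients include integrins and Toll-like receptors. Its levels were 4.84, 5.11, 5.12 and 5.00 in rectum of IL18ko stress, IL18ko control, WT stress and WT control mice, against 5.50, 5.65, 5.72 and 5.82 in colon. The tissues did not overlap, and the difference was -0.65 ± 0.09 (SE, n = 4 pairs), 1.57-fold lower in rectum (limma adjusted p = 0.00275). A second Hsp90b1 probe gave -0.80 ± 0.09 (adjusted p = 0.00135).

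Ddit3 encodes Chop, the transcription factor that links lasting ER stress to cell death. Its levels were -0.56, -0.74, -1.16 and -0.62 in rectum of IL18ko stress, IL18ko control, WT stress and WT control mice, against -0.65, -0.71, -0.64 and -0.77 in colon. The colon arrays lay within 0.13 of each other and the WT stress rectum array was the lowest of all 8. The difference was -0.08 ± 0.14 (SE, n = 4 pairs, limma adjusted p = 0.730), lower in rectum in 2 of 4 pairs.

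Xbp1 encodes the transcription factor that Ire1 activates by splicing its RNA, and which secretory cells need to build their ER. A single probe read it, which gives no measure of the splicing. Its levels were 2.44, 2.36, 2.24 and 2.44 in rectum of IL18ko stress, IL18ko control, WT stress and WT control mice, against 2.75, 2.89, 2.84 and 2.75 in colon. The tissues did not overlap, and the difference was -0.44 ± 0.10 (SE, n = 4 pairs), 1.35-fold lower in rectum (limma adjusted p = 0.0218). It missed the threshold without the IL18ko control pair (adjusted p = 0.138) and without the WT control pair (adjusted p = 0.0893), and with the authors' deposited ratios in place of the scanner signals (adjusted p = 0.0655), where the adjusted p over the 9 other settings ran from 0.00831 to 0.0655.

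In all, the rectum and colon arrays did not overlap for 5 of the 10 genes, with rectum lower each time, against 14.3% of all tested probes. Hsph1, Hspd1, Hspa5 and Hsp90b1 passed the test whichever pair was left out. The number of members called was 8 without the WT stress pair, when 10737 probes were called, and 4 without the IL18ko control pair (3793 probes) or the WT control pair (3509 probes).

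**Figure D2:**
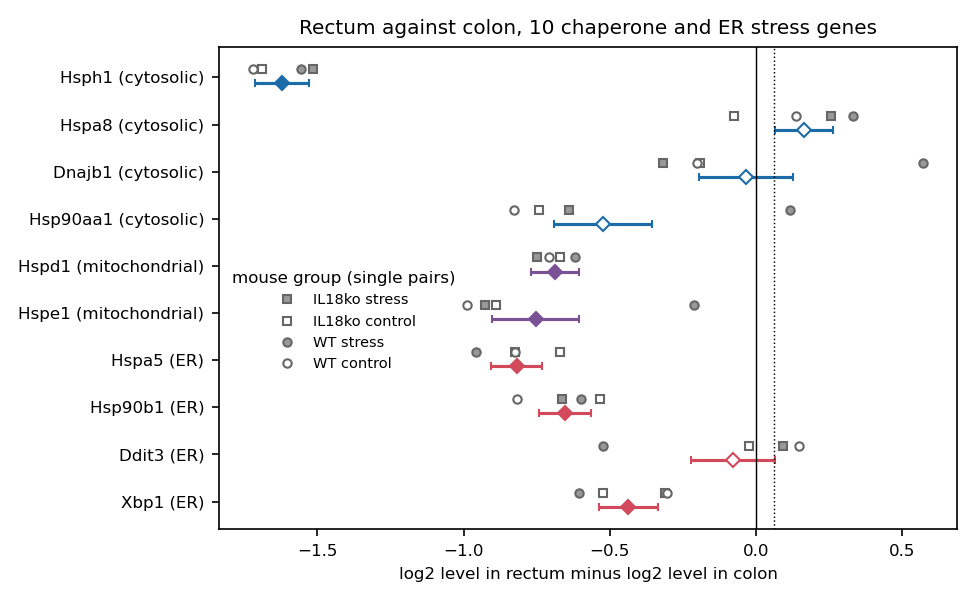
Log2 level in rectum minus log2 level in colon for the 10 genes. Small symbols are the 4 kinds of mice and diamonds the limma estimate with its standard error, filled where the adjusted p was under 0.05. The dotted line is the median of all tested probes (0.06). Hsph1 lies farthest to the left at -1.62, and the WT stress pair lies to the right of the other pairs for Dnajb1, Hsp90aa1 and Hspe1.

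Markers of several cell types moved with these genes. Of the goblet cell markers, 3 of 5 tested were lower in rectum and none higher, and the log2 of their summed level was 9.29 to 9.50 on rectum arrays, against 9.73 to 9.84 on colon arrays. Of the plasma cell markers, 4 of 6 tested were lower and none higher (log2 of the summed level 3.50 to 3.84 in rectum and 4.65 to 5.31 in colon). Of the adipocyte markers, 5 of 6 were lower (3.40 to 5.13 and 4.73 to 5.78). In the other direction, 7 of 10 skeletal muscle markers (2.72 to 7.32 in rectum and 1.67 to 2.50 in colon), 4 of 5 tested macrophage markers (1.61 to 2.26 and 0.89 to 1.62) and 3 of 4 tested squamous epithelium markers (1.57 to 2.35 and 0.74 to 1.16) were higher in rectum. The squamous markers Ivl and Dsg3 were above background on no array. By limma 0 of 7 smooth muscle markers were called (8.77 to 9.31 and 8.92 to 9.50). All 8 epithelial markers were above background on every array (10.04 to 10.21 and 10.01 to 10.18), with 1 higher and 2 lower in rectum. The part of these cells in the chaperone differences was not tested.

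Further genes of the same machinery were read from 4 lists. The list of ER chaperones, folding enzymes and ER-associated degradation held the most calls. Of 45 genes tested, 22 were lower in rectum and 2 higher, with a median of -0.41, against 15.3% lower, 15.1% higher and a median of 0.05 over the 12718 named genes tested. The largest falls were in Pdia5, a protein disulfide isomerase (-1.29 ± 0.10, limma adjusted p = 0.000322), Agr2, the disulfide isomerase that goblet cells need to make mucin (-1.21 ± 0.12, adjusted p = 0.000776), and Dnajc10, a disulfide reductase of ER-associated degradation (-1.19 ± 0.15, adjusted p = 0.00213). The genes that rose were Cdnf, a relative of the ER protein Manf (0.73 ± 0.15, adjusted p = 0.0138), and Derl1, a channel component of ER-associated degradation (0.30 ± 0.09, adjusted p = 0.0457). Neither passed without the IL18ko control pair or without the WT control pair (0 genes higher in both cases). The count of lower genes was 13 without the IL18ko control pair, 9 without the WT control pair and 32 without the WT stress pair.

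Among all named genes tested, 15.3% were lower in rectum and 15.1% higher, with a median of 0.05. The list of ER stress sensors and transcription factors also held genes that are neither, such as Chac1, Asns and Ddit4. Below, its label stands for the whole list. Of its 23 tested genes, 6 were lower in rectum and 1 higher (median -0.13). The largest falls were in Chac1, a glutathione-degrading enzyme induced by Atf4 and Ddit3 (-1.71 ± 0.17, limma adjusted p = 0.000757), Nupr1, a stress-induced transcription regulator (-1.64 ± 0.15, adjusted p = 0.000480), and Asns, the asparagine synthetase that Atf4 induces (-1.08 ± 0.16, adjusted p = 0.00327). Ddit4, an inhibitor of the growth kinase mTORC1 that Atf4 and other stress factors induce, rose (0.67 ± 0.13, adjusted p = 0.0111). Without the IL18ko control pair 4 genes of the list were lower, and the rise of Ddit4 missed the threshold without that pair or the WT control pair (adjusted p = 0.0621 and 0.0682), but the list held 3 higher genes without the WT stress pair.

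The shares of all named genes, 15.3% lower and 15.1% higher in rectum with a median of 0.05, apply here too. Of 38 tested cytosolic chaperones and heat shock regulators, 9 were lower in rectum and 0 higher by limma, with 1 higher at an unadjusted p under 0.05 (median -0.18). The largest falls were in Hspa1a, an inducible Hsp70 (-1.15 ± 0.18, limma adjusted p = 0.00503), Hspb1, a small heat shock protein (-1.06 ± 0.16, adjusted p = 0.00360), and Chordc1, an Hsp90 co-chaperone (-0.84 ± 0.10, adjusted p = 0.00172). Hspa1a has a near-identical copy, Hspa1b, and whether its probe also reads that copy was not tested. The list held 6 lower genes without the IL18ko control pair, 5 without the WT control pair, and 2 higher genes without the WT stress pair.

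Of 13 tested mitochondrial chaperones and proteases, 3 were lower in rectum and 0 higher by limma, also with 0 higher at an unadjusted p under 0.05 (median 0.03). Of all named genes tested, 15.3% were lower and 15.1% higher, and their median of 0.05 was close to that of this list. The 3 lower genes of the list were the proteases Yme1l1 (-0.44 ± 0.10, adjusted p = 0.0185) and Htra2 (-0.35 ± 0.10, adjusted p = 0.0353) and Grpel1, the nucleotide exchange factor of mitochondrial Hsp70 (-0.28 ± 0.08, adjusted p = 0.0499). This count was 0 without the IL18ko control pair, 0 without the WT control pair, 1 without the IL18ko stress pair and 5 without the WT stress pair.

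**Figure D3:**
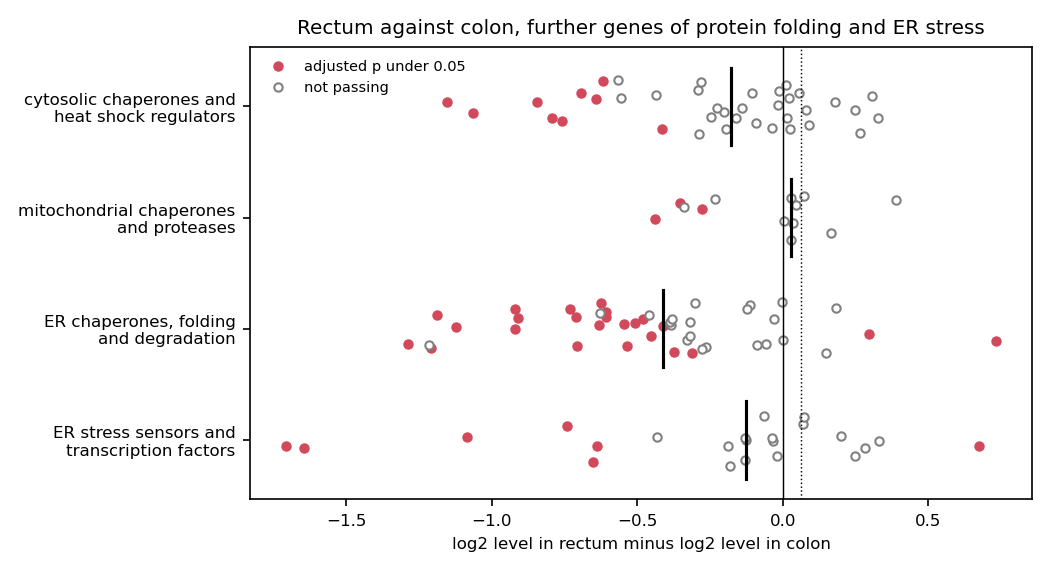
Log2 level in rectum minus log2 level in colon for the tested genes of 4 lists. From top to bottom they are 38 cytosolic, 13 mitochondrial and 45 ER genes, and 23 of the sensor and transcription factor list. Each point is 1 gene, red where the limma adjusted p was under 0.05. The black bar is the median of the list and the dotted line the median of all tested probes (0.06). The median of the ER list, -0.41, lies farthest to the left.

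IL18ko mice were then compared with WT mice. The strain and the knockout's construction are not given, so loss of Il18 and other differences between these mice cannot be told apart. Of the 10 genes, Hspe1 was lower in IL18ko and the other 9 did not pass the test. Genotype and housing were fitted together to the 4 means of rectum and colon with limma, which leaves 1 residual degree of freedom, so the errors rest mostly on variance shared across probes. In this fit 11.7% of all probes were called, 6.15% higher and 5.57% lower in IL18ko. The median was -0.08 over the 10 genes and 0.01 over all probes.

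The Hspe1 difference was -0.49 ± 0.10 (SE, 4 tissue means), 1.40-fold lower in IL18ko, with a limma adjusted p of 0.00973. Its differences on single arrays were -0.94 in rectum under stress, -0.35 in rectum under control housing, -0.22 in colon under stress and -0.45 in colon under control housing. It was lower in 4 of 4. The call was lost with the 8 arrays taken as independent (adjusted p = 0.123, when 0.122% of probes were called), without the variance trend (0.131) and with no background filter (0.136), and the adjusted p over the 9 settings other than leaving out arrays ran from 0.00291 to 0.136. With the 8 arrays taken as independent and the WT stress rectum array left out, 3621 probes were called and the Hspe1 difference was -0.33 (adjusted p = 0.0244), where the adjusted p over the 8 choices of an array left out ran from 0.0244 to 0.406.

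Under the same fit Dnajb1 averaged 4.76 in IL18ko and 4.99 in WT (-0.23 ± 0.11, limma adjusted p = 0.182), and Hsph1 averaged 3.22 in IL18ko and 3.03 in WT (0.19 ± 0.12, adjusted p = 0.326). With 1 array left out of the fit to 8 independent arrays, Dnajb1 ran from -0.37 without the WT stress colon array to -0.061 without the WT stress rectum array, and Hsph1 from 0.10 without the WT control rectum array to 0.28 without the IL18ko stress colon array. Hsp90b1 differed by -0.14 ± 0.11, Hsp90aa1 by -0.14 ± 0.12, Ddit3 by 0.13 ± 0.12, and Hspa8, Hspa5, Xbp1 and Hspd1 by less than 0.09 in either direction. The second probes gave -0.19 ± 0.11 for Hspa8, -0.19 ± 0.10 for Dnajb1, 0.09 ± 0.10 for Hspd1 and -0.14 ± 0.11 for Hsp90b1, and none of the 4 passed. The 4 single-array differences of 1.5-fold or more all belonged to stressed rectum. There the level in IL18ko was 0.597 times that in WT for Dnajb1, 0.602 times for Hsp90aa1 and 0.523 times for Hspe1, and 1.52 times for Ddit3, with no test because each side is 1 array. In that comparison 33.9% of probes differed by 1.5-fold or more, 15.6% lower and 18.3% higher. Each of these ratios has the WT stress rectum array, which stood apart, as its WT side. The second Dnajb1 probe read 1.49 in IL18ko and 1.44 in WT stressed rectum, so it did not show the lower level.

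No member differed by 1.5-fold between IL18ko and WT in rectum under control housing, where 15.9% of probes did, in colon under stress (19.6% of probes) or in colon under control housing (12.1%). The dependence of the genotype difference on tissue was tested on the 4 rectum minus colon differences. By limma 0 of the 10 genes were called, and 0 had an unadjusted p under 0.05, where 0.423% of probes were called. The standard errors were wide, from 0.36 for Hspa8 to 0.46 for Ddit3. Dnajb1, at -0.44 ± 0.38, did not pass (limma unadjusted p = 0.246), so the test says little about differences of this size or smaller.

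In the pathway lists, 4 of 38 cytosolic genes were higher in IL18ko and 0 lower by limma, against 6.55% of named genes higher and 6.6% lower. At an unadjusted p under 0.05, 7 were higher and 5 lower (18.4% and 13.2%), beside 14.4% and 13% of all probes. The 4 that passed were Hspb6, a small heat shock protein abundant in muscle (0.99 ± 0.18, adjusted p = 0.00501), and Hspb1 (0.65 ± 0.14, adjusted p = 0.0104), and, named after their values were seen, Hspa1a (0.43) and Hsf1, the main heat shock factor (0.34). Of 45 ER genes, 7 were lower and 2 higher in IL18ko. The largest falls were in Sec61g, a subunit of the channel through which proteins enter the ER (-0.67 ± 0.12, adjusted p = 0.00340), and Agr3, a relative of Agr2 (-0.66 ± 0.13, adjusted p = 0.00743). The 2 that rose were Derl3, a component of ER-associated degradation (0.80 ± 0.19, adjusted p = 0.0141), and Hyou1, the large Hsp70 relative of the ER (0.79 ± 0.13, adjusted p = 0.00239).

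Of 23 tested genes of the sensor and transcription factor list, 4 were higher and 0 lower by limma. At an unadjusted p under 0.05, 5 were higher and 0 lower, where 14.4% of all probes were higher and 13% lower. Those that passed were Creb3l3 (1.22 ± 0.17, limma adjusted p = 0.000730) and Creb3l2 (0.51 ± 0.13, adjusted p = 0.0227), membrane-bound transcription factors of the ER, and, named after their values were seen, Ppp1r15a (0.47) and Atf5 (0.37). Of 13 mitochondrial genes, Hscb, an iron-sulfur cluster co-chaperone, was the 1 that was lower (-0.53 ± 0.11, adjusted p = 0.00688), and 0 were higher. At an unadjusted p under 0.05, 4 mitochondrial genes were lower and 0 higher. With the 8 arrays taken as independent, 0 genes of the 4 lists passed in either direction. In that fit leaving out the WT stress rectum array gave 12 ER genes lower and 3 higher, 2 sensors and transcription factors lower and 5 higher, 2 cytosolic genes lower and 3 higher, and 3 mitochondrial genes lower, and leaving out any other array gave 0 in each list. Without the WT stress rectum array the difference was 0.60 for Hspb6, -0.32 for Hscb and -0.40 for Agr3. Leaving out the WT stress colon array gave 0.33 for Creb3l2, and leaving out the IL18ko control rectum array gave 0.20 for Derl3.

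Markers of other cell types also moved with genotype. Of 5 tested goblet cell markers 1 was higher in IL18ko, Atoh1, the factor that commits cells to the secretory lineage (1.12 ± 0.11, limma adjusted p = 3.00e-05), and the log2 of the summed level was 9.34 to 9.37 in IL18ko rectum, against 9.29 to 9.50 in WT rectum, and 9.82 to 9.84 in IL18ko colon, against 9.73 to 9.83 in WT colon. Of 6 tested plasma cell markers 2 were lower, Jchain, the joining chain of secreted antibodies (-0.77 ± 0.11, adjusted p = 0.000813), and Mzb1, an ER protein of plasma cells (-0.55 ± 0.15, adjusted p = 0.0268), with 3.50 to 3.63 in IL18ko rectum, against 3.61 to 3.84 in WT rectum, and 4.65 to 5.31 in IL18ko colon, against 5.06 to 5.27 in WT colon. Their single-array differences ran from -1.70 to 0.43 for Jchain and from -0.92 to 0.29 for Mzb1, so neither was lower in every comparison. By limma 6 of 6 adipocyte markers were higher in IL18ko, with a log2 of the summed level of 4.83 to 5.13 in IL18ko rectum, against 3.40 to 3.88 in WT rectum, and of 5.75 to 5.77 in IL18ko colon, against 4.73 to 5.78 in WT colon. Of 10 skeletal muscle markers 5 were higher (5.14 to 7.32 in IL18ko rectum and 2.72 to 4.42 in WT rectum; 1.67 to 2.28 in IL18ko colon and 1.83 to 2.50 in WT colon), and of 7 smooth muscle markers 3 (9.29 to 9.31 and 8.77 to 9.01 in rectum; 9.05 to 9.50 and 8.92 to 9.12 in colon). Of the squamous and macrophage markers 1 each was higher, and 0 epithelial markers passed. The genotype difference was higher in rectum than in colon by limma for 8 of 10 skeletal muscle markers, where 0.423% of probes depended on tissue. So it was for 1 of 6 adipocyte and 1 of 4 tested squamous markers, and for none of the other lists. With the 8 arrays taken as independent, 1 of 5 goblet cell markers was higher and 0 markers of the other 7 lists passed. Their part in the chaperone differences was not tested.

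Stress mice were last compared with control mice, the question for which the study used isolation. None of the 10 genes passed the limma test in either direction, where 0.0876% of all probes were called (0.0647% higher, 0.0228% lower), and 3 had an unadjusted p under 0.05, all lower in stress, where 4.09% of all probes were lower and 5.56% higher at that level. With the 8 arrays taken as independent 0 were called as well, and 2 had an unadjusted p under 0.05, both lower, where 1.08% of all probes were lower and 2.34% higher. The median was -0.13 over the 10 genes and 0.02 over all probes.

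Hsph1 averaged 2.89 in stress and 3.37 in control mice, a difference of -0.48 ± 0.12 (SE, 4 tissue means, limma adjusted p = 0.201). Its single-array differences were -0.64 in IL18ko rectum, -0.14 in WT rectum, -0.82 in IL18ko colon and -0.31 in WT colon, so that it was lower under stress in 4 of 4. The adjusted p stayed above the threshold in the 9 other settings, from 0.0688 to 0.899.

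Hspa5 averaged 5.41 in stress and 5.72 in control mice (-0.31 ± 0.11, limma adjusted p = 0.392), and was lower in 4 of 4 single-array comparisons, from -0.44 to -0.20. Hspe1 averaged 3.51 in stress and 3.75 in control mice (-0.23 ± 0.10, adjusted p = 0.498), lower in 3 of 4. With 1 of 8 independent arrays left out it ran from -0.39 without the WT stress rectum array to -0.12 without the WT stress colon array. Hspd1 was lower in 4 of 4 comparisons by a small margin (-0.17 ± 0.11, adjusted p = 0.659), and its second probe differed by -0.49 ± 0.10 (adjusted p = 0.0917). Hspa8 differed by -0.18 ± 0.13 (adjusted p = 0.675), and its second probe, lower in 4 of 4, by -0.45 ± 0.11 (adjusted p = 0.192). Hsp90b1 differed by -0.10 ± 0.11 (adjusted p = 0.810), and its second probe, also lower in 4 of 4, by -0.26 ± 0.11 (adjusted p = 0.453).

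For Dnajb1 and Hsp90aa1 the rectum of both genotypes is given side by side, without a test. In WT rectum the level under stress was 1.58 times that under control housing for Dnajb1 and 1.51 times for Hsp90aa1, and 15.4% of all probes were higher by 1.5-fold or more. In IL18ko rectum the ratios were 1.05 and 0.839, with 4.1% of probes higher. Both WT ratios rest on the WT stress rectum array. Over tissue means, Dnajb1 differed by 0.21 ± 0.11 (limma adjusted p = 0.566) and Hsp90aa1 by -0.09 ± 0.12 (adjusted p = 0.848), and the second Dnajb1 probe by -0.02 ± 0.10 (adjusted p = 0.971). With 1 of 8 independent arrays left out, Dnajb1 was 0.037 without the WT stress rectum array and 0.34 without the WT stress colon array, and Hsp90aa1 was -0.30 without the WT stress rectum array.

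Ddit3 in WT rectum under stress was 0.686 times its control level, and in the other 3 comparisons 1.05 to 1.13 times. Over tissue means it differed by -0.04 ± 0.12 (limma adjusted p = 0.935) and Xbp1 by -0.04 ± 0.10 (adjusted p = 0.919). By limma 0 of the 10 genes were called for a dependence of the housing difference on tissue, and 0 had an unadjusted p under 0.05, where 0.19% of probes were called. Standard errors were again 0.36 to 0.46, with 0.52 ± 0.37 for Hsp90aa1, so this test also says little about small differences. Dependence of the genotype difference on housing was called for 0 of the 10 genes and 0% of probes by limma on 8 independent arrays. In that fit 1 gene and 1.25% of probes had an unadjusted p under 0.05. It counts rectum and colon of one kind of mouse as replicates, which they are not, and it cannot show an absence of dependence. In the 4 lists 0 genes were called for housing by limma, where 0.0393% of named genes were higher and 0.0236% lower, and 0 with the 8 arrays taken as independent. At an unadjusted p under 0.05, 11 cytosolic, 1 mitochondrial and 4 ER genes were lower under stress and 0 higher, and 3 sensors and transcription factors were higher and 0 lower, beside the 4.09% lower and 5.56% higher of all probes. With the 8 arrays taken as independent these counts were 5, 0 and 2 lower and 0 sensors and transcription factors higher. Of the cell type markers, 1 of 6 adipocyte markers was lower under stress by limma and no other was called.

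**Figure D4:**
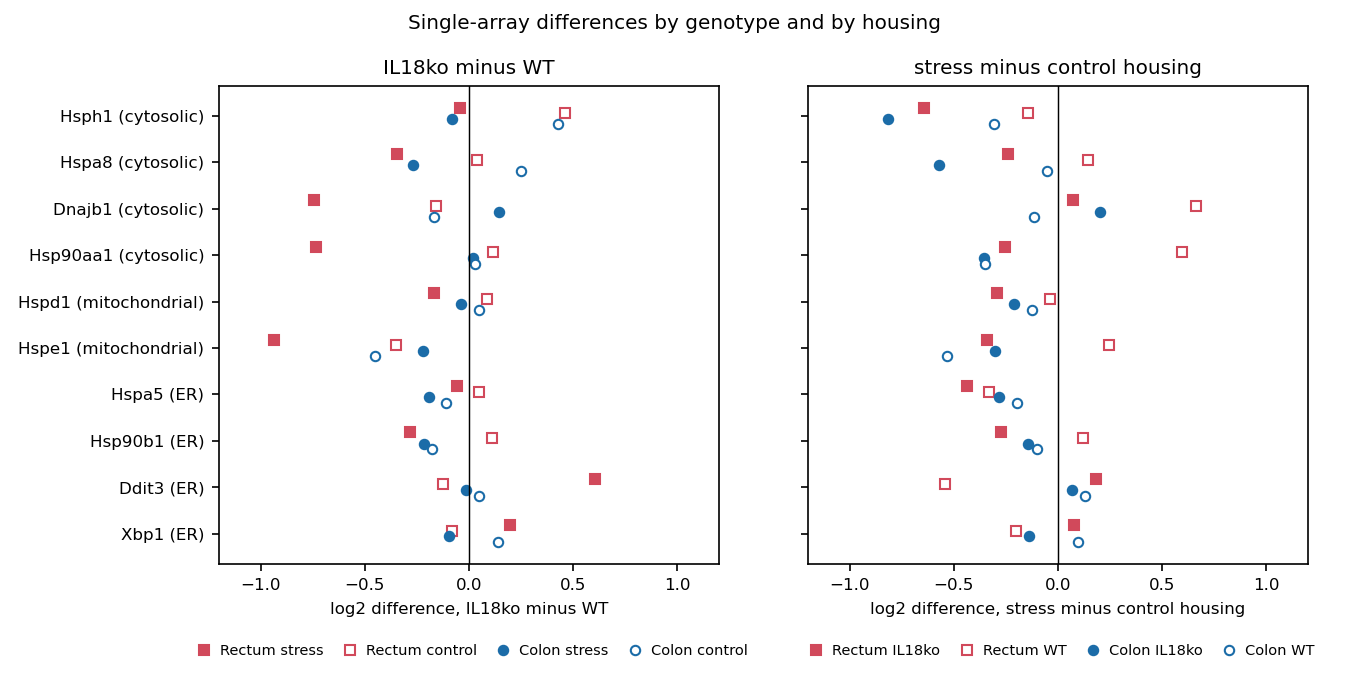
Log2 differences of 1 array against 1 array for the 10 genes, IL18ko minus WT on the left and stress minus control housing on the right, squares for rectum and circles for colon, filled for stress (left) or IL18ko (right) and open for control (left) or WT (right). Hspe1 lies left of 0 in 4 of 4 genotype comparisons, and Hsph1, Hspd1 and Hspa5 in 4 of 4 housing comparisons. The points farthest from the rest for Dnajb1, Hsp90aa1 and Ddit3 involve the WT stress rectum array.

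Genes were ranked by Pearson correlation with the mean of a trio, over the 8 arrays and among 12718 named genes. The trios were the cytosolic genes Hsph1, Hspa8 and Dnajb1 and the ER genes Hspa5, Hsp90b1 and Ddit3. Over the 8 arrays the genes of a trio did not all vary together, so likeness to its mean is not likeness to each gene. In the cytosolic trio r was -0.20 for Hsph1 with Hspa8, -0.08 for Hsph1 with Dnajb1 and 0.12 for Hspa8 with Dnajb1. In the ER trio it was 0.95 for Hspa5 with Hsp90b1, 0.24 for Hspa5 with Ddit3 and 0.01 for Hsp90b1 with Ddit3. Highest for the cytosolic mean were Pdha1 (0.987), Slc35b1 (0.976), Aldh9a1 (0.974), Scfd2 (0.972) and Sec23b (0.971). Highest for the ER mean were Mthfd2 (0.997), Sdf2l1 (0.996), Nmt1 (0.995), Mapk11 (0.994) and Diaph3 (0.989), and 224 genes exceeded 0.95, against 19 for the cytosolic mean. These values include the difference between tissues and so the slide. With each tissue's mean subtracted, the cytosolic mean was most like Pdha1 (0.954), Letm2 (0.951), Creld2 (0.945), Heg1 (0.943) and Hspa4l (0.938), and the ER mean most like Gimap9 (0.989), Mthfd2 (0.978), Pramel12 (0.975), Chmp4c (0.967) and Insm1 (0.967). With 8 arrays and this many genes, such values describe likeness and carry no test.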

How the data were processed

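RNA of 8 mucosa pools was labelled with Cy3 and hybridised to 1-colour Agilent mouse arrays, 1 array per pool. The deposited intensity values are background-subtracted spot signals that Agilent Feature Extraction wrote, per the file headers, with probe annotation on build mm7. The authors' deposited ratio values divide each array by the WT control colon array, per the labels' protocols and descriptions, with the scaling before division not stated. They followed the scanner ratios (r of 0.995 to 1.000 over 18277 probes matched from 18330 features) and served as an alternative.

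From the scanner files, control spots and outlier spots were left out (74 to 141 outliers per array), spots of a probe were averaged, and log2 of the processed signal minus the 75th percentile of each array was taken. Of 40963 probes kept, 22857 were named through their accession. Probes that Feature Extraction marked well above background on 4 or more of the 8 arrays entered the tests (26265 probes, 12718 named genes) with limma 3.58.1 in R 4.3.3, with a variance trend over mean level and Benjamini-Hochberg adjustment at 0.05. Rectum and colon of the same genotype and housing were paired by the labels. That they came from the same mice is not stated. No group had a replicate, so the tissue p-values measure the spread of differences across genotype and housing, and the number of arrays limits the precision. Those for genotype and housing rest mostly on variance shared across probes. None of the tests measures the spread between mice.

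From each list the 3 called genes with the largest rise and fall between tissues were named, and the 2 with the largest for genotype and for housing. Likeness named 5 genes per ranking. The members, lists and tests were chosen with earlier results of these data known. Alternatives were quantile normalization, median centring, normexp background correction with an offset of 50 (on median signals, leaving out 18 spots more than 50 units below local background), the deposited ratios, other background filters, no variance trend, the mean of a gene's probes, unpaired or independent arrays, and leaving out pairs or arrays. A limma fit to the 8 arrays with tissue, genotype, housing and genotype by housing (3 residual degrees of freedom) was added after the data were seen. The fits were tested on simulated data. Promoters were from RefSeq (GRCm38.p6). Figures were drawn with matplotlib 3.10.9 in Python 3.11.15.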

Additional observations from a re-analysis of the deposited data

Results flagged for a closer look

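The difference between IL18ko and WT ran in opposite directions under the 2 kinds of housing for 3 of the 10 genes, in rectum and in colon alike. For Hsph1 it averaged -0.06 under stress and 0.44 under control housing, which leaves -0.51 between them on the log2 scale. For Hspa8 the averages were -0.31 under stress and 0.15 under control housing, a gap of -0.45, and for Hspd1 -0.10 and 0.07, a gap of -0.17. Both tissues moved one way under one housing and both the opposite way under the other, a pattern that 3.21% of all tested probes showed. The 3 genes were flagged because of this pattern and are not separate cases. With each tissue's mean subtracted, r was 0.70 for Hsph1 with Hspa8, 0.87 for Hsph1 with Hspd1 and 0.78 for Hspa8 with Hspd1. Rectum and colon of one kind of mouse are not independent either. The second probes of Hspa8 and Hspd1 did not show the pattern of opposite directions. In rectum the second Hspa8 probe read 5.17 in IL18ko and 4.88 in WT under stress, and 5.26 and 5.55 under control housing. In colon it ran as the first did. Under stress the second Hspd1 probe read 1.78 in IL18ko and 1.01 in WT rectum, and 2.14 and 2.54 in colon. A test added after these values were seen, limma on the 8 arrays with a term for genotype by housing and 3 residual degrees of freedom, called 0 of 26265 probes, with 328 at an unadjusted p under 0.05. It gave -0.51 ± 0.19 for Hsph1 (SE, unadjusted p = 0.0312), -0.45 ± 0.20 for Hspa8 (0.0578) and -0.17 ± 0.16 for Hspd1 (0.336), each with an adjusted p of 0.999994 by limma. This fit counts rectum and colon of one kind of mouse as replicates, so its p-values do not measure the spread between mice.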

How the results depend on the processing

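Results rest on 1 pooled array per group, so genotype and housing p-values lean on variance shared across probes. Across all settings 117 member values for tissue, 148 for genotype and 164 for housing kept their direction and side of the threshold, 5, 10 and 0 lost the call, and 3, 0 and 0 gained it. For tissue, 8485 probes and 6 members were called with no replicate block, against 7220 and 6 with rectum and colon paired, and 4824 to 7487 in the other settings. Leaving out 1 pair gave 3509 to 10737 probes and 4 to 8 members. Members near 0 turned sign: Dnajb1 between tissues was 0.0011 with median centring and -0.24 to 0.062 over leave-outs, and Ddit3 -0.15 to 0.072.

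For genotype, 3078 probes were called (1614 higher, 1464 lower), against 1941 with median centring (613 higher, 1328 lower), 5 with no filter, 18 without trend and 32 with 8 independent arrays, with 0 members called in the last 3 settings. Leaving out 1 array of this fit gave 6 to 3621 probes and 0 to 1 members. Sign turns for genotype were Hspa8 0.047, Hspd1 0.078 and Hspa5 0.022 under quantile normalization, Hspd1 0.037 by the mean of its probes and Xbp1 -0.033 with median centring. Over leave-outs Hspa8 ran from -0.20 to 0.019, Hsp90aa1 from -0.27 to 0.072, Hspd1 from -0.043 to 0.022, Ddit3 from -0.023 to 0.23 and Xbp1 from -0.0044 to 0.081.

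For housing, 23 probes were called, against 4 with quantile normalization, 2 with median centring, 47 with normexp, 193 with deposited ratios, 96 with the filter on all 8 arrays, and 0 with no filter, without trend, with 8 independent arrays and in each leave-out (limma; 898 at an unadjusted p under 0.05 with 8 independent arrays). Ddit3 was 0.021 with normexp and -0.13 to 0.11 over leave-outs, Hsp90aa1 -0.30 to 0.017 and Xbp1 -0.082 to 0.0032. Tissue dependence without trend gave 199 probes for genotype and 93 for housing, against 111 and 50. The causes were not tested.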

Other observations

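Second probes of a gene did not always follow the first on the WT stress rectum array. There the second probe of Hspd1 read 1.01, against 1.78 to 1.97 on the other rectum arrays, while the first read 4.99, within the 4.83 to 5.12 of the other rectum arrays. The second probe of Hspa8 read 4.88, against 5.17 to 5.55 on the other rectum arrays, where the first probe read 6.14, the highest of its tissue.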
